A study of Homo sapiens with 6 samples.

Results

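The mRNAs of kinesin and myosin motors were examined for contacts with AEG-1, a membrane protein of the endoplasmic reticulum that is encoded by MTDH. Members were all listed genes whose symbol begins with KIF and a digit or C, with MYO and a digit, or with MYH or MYL and a digit, except MYH9, which was left out. This rule uses names and no measured value. It found 44 of the 8204 genes listed in any library, of which 25 encode kinesins and 19 encode myosin heavy or light chains. They carried 520 of 72385 called sites.

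Kinesins are motors that use ATP to move along microtubules or, in some families, to take microtubule ends apart. Some carry vesicles, organelles and protein complexes, and others build the mitotic spindle and the midbody. Myosins act on actin filaments: non-muscle myosin II contracts the cell cortex, light chains bind and regulate the neck of the heavy chain, and unconventional myosins link membranes and organelles to actin. In liver-derived cells both systems serve secretion, endocytosis and cell division.

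All 6 libraries came from AEG-1-14 cells, which are based on HepG3, a hepatoblastoma line by the labels. These cells stably express AEG-1 that carries a C-terminal HA epitope, so every library, controls included, held the tagged protein. HITS-CLIP AEG1 cells (2 libraries) received UV light at 254 nm, PAR-CLIP AEG1 cells (1 library) received UV light at 365 nm, and the HITS-CLIP negative controls (2 libraries) and the PAR-CLIP negative control (1 library) received none. In both assays the light step serves to bond RNA to the proteins that the RNA touches. RNA was trimmed with RNase I and precipitated with an anti-HA antibody, and the recovered fragments were sequenced and called as sites, which are stretches of an mRNA with an assigned score. The labels name 1 such line, and no library without the tag was analysed here. Nothing in the labels says that replicates came from separate cultures, so the spread between them may be technical.

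The libraries listed 6378 and 5651 sites in HITS-CLIP AEG1, 60 and 90 in the HITS-CLIP controls, 60085 in PAR-CLIP AEG1 and 121 in the PAR-CLIP control. Read depth is unknown, so a missing site means only that none was called. Of 10 hepatocyte marker genes, 10 were listed and 9 had a site in both HITS-CLIP AEG1 replicates, among them AFP with 15 and 14 sites, against 0 and 0 in the controls. Control sites were called on 4 of the 10. ALB had 5 and 10 sites in HITS-CLIP AEG1, against 11 and 9 in its controls, and 3 in PAR-CLIP AEG1, against 13 in its control. SERPINA1 had 6 and 5 in HITS-CLIP AEG1, against 1 and 2. The mRNA list thus holds the hepatocyte markers, but not always with more sites in AEG1 than in control. HNF4A, the other one, had 10 PAR-CLIP AEG1 sites and none in HITS-CLIP. Of 10 muscle markers 3 were listed, with none in both replicates, and of 8 blood and endothelium markers 0 were listed.

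A RefSeq gene table holds 95 protein-coding symbols that meet the naming rule, and 51 of them had no site in any library. Kinesins were listed most often, with 25 of 42. Of 25 unconventional myosins 12 were listed, of 14 myosin light chains 4, and of 14 conventional heavy chains 3. The unlisted set holds muscle heavy chains such as MYH1, MYH2 and MYH6, the neuronal kinesin KIF1A, and the inner-ear myosins MYO3A and MYO15A. The mRNA level of these genes was not measured, so an absent transcript and an uncontacted one cannot be told apart.

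On the motor mRNAs, HITS-CLIP AEG1 called 16 and 10 sites, against 2 and 1 in the HITS-CLIP controls. The means were 13 ± 4.24 and 1.5 ± 0.707 sites (SD, n = 2 each), a ratio of 8.67, where sites of all genes gave a ratio of 80.2. PAR-CLIP AEG1 called 491 sites on the motors, against 0 in its control. Motors held 0.251% of all sites in HITS-CLIP AEG1 replicate 1 (exact Clopper-Pearson 95% interval 0.143% to 0.407%) and 0.177% in replicate 2 (0.0849% to 0.325%). Their share in PAR-CLIP AEG1 was 0.817% (0.747% to 0.892%). These intervals and those below cover counting error only. Intervals over sites also treat each site as independent, while the 491 PAR-CLIP AEG1 sites lay on 37 motor mRNAs, so they may be too narrow. The share of called sites that fell on motors was larger in the PAR-CLIP library than in either HITS-CLIP AEG1 library. With 1 PAR-CLIP AEG1 library, this difference has no replicate check.

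By gene, 37 of 44 motors had a PAR-CLIP AEG1 site (84.1%), against 97.6% of all listed genes. A gene is listed only if some library called a site on it, so these shares describe the lists and not all expressed genes. Sites in both HITS-CLIP AEG1 replicates were found on 7 of 44 motors (15.9%, 95% interval 6.64% to 30.1%), against 16.1% of all listed genes. Sites in exactly 1 replicate were found on another 7 (15.9%), against 11.2% of all listed genes. The remaining 30 motors had PAR-CLIP AEG1 sites only. The share of motors with a site in both HITS-CLIP AEG1 replicates was therefore near that of all genes, while PAR-CLIP sites were more numerous. Of 44 motors, 15 (34.1%, 95% interval 20.5% to 49.9%) had 15 or more, against 12.8% of all listed genes. Motor mRNAs with a PAR-CLIP AEG1 site had a median of 12 sites, against 5 for all genes.

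**Figure D1:**
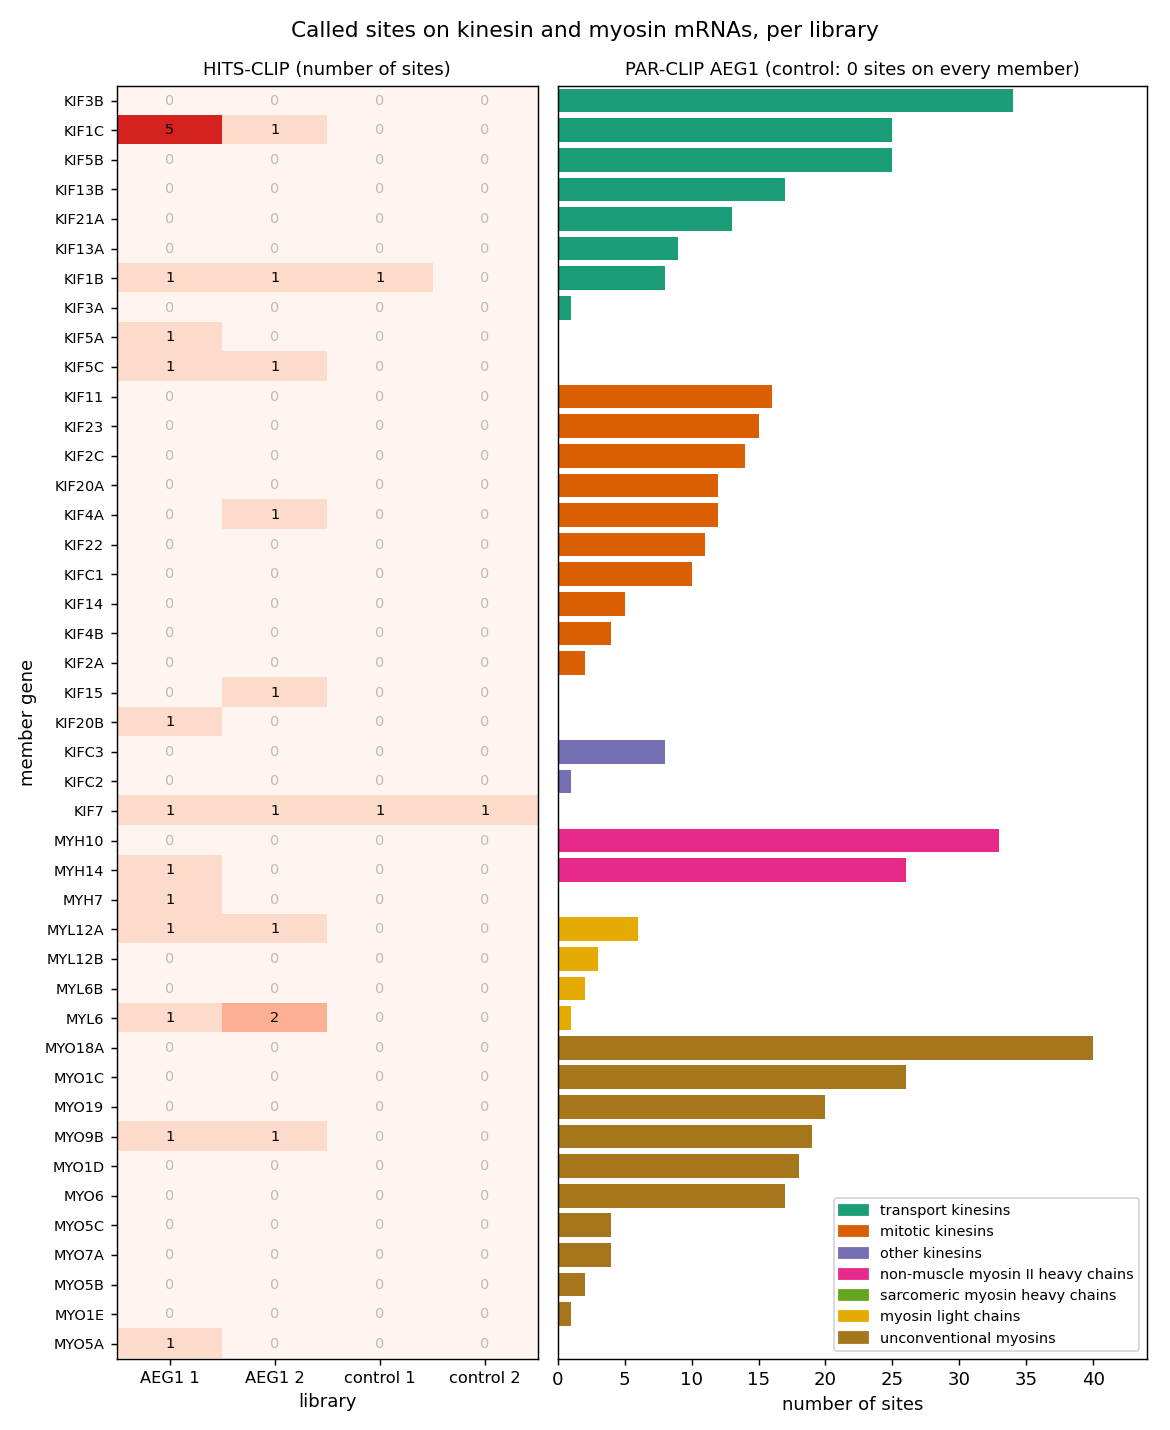
Number of called sites on each motor mRNA, with 1 of the 44 not drawn. Left, the count in each HITS-CLIP AEG1 and control library (numbers in cells, shading deepens up to 5 sites). Right, bars give the count in the single PAR-CLIP AEG1 library, coloured by class. MYO18A has the longest bar, 40 sites, and most genes have no HITS-CLIP AEG1 site.

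The stretch reached by called PAR-CLIP sites, which is not the length of the mRNA itself, differed in the same direction. The furthest PAR-CLIP site on a motor mRNA ended at a median of 4691 nt from the start, against 2053 nt for all genes. Sites covered a median of 1034 nt on motors and 420 nt on all genes, but 25.3% and 22.6% of the stretch up to that furthest end. The part of mRNA length in the number of sites was not tested. Among the genes with 15 or more PAR-CLIP sites, 2 of 15 motors (13.3%, 95% interval 1.66% to 40.5%) had a site in both HITS-CLIP AEG1 replicates, against 32.6% of all such genes. Those motors were KIF1C and MYO9B.

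Between treatment and control, 5 of 44 motors (11.4%) had more sites in each HITS-CLIP AEG1 replicate than in either control, against 15.5% of all listed genes. They were KIF1C, KIF5C, MYO9B, MYL6 and MYL12A. Each gave p = 0.333 in an exact two-sided permutation test over the libraries, the smallest value that 2 against 2 libraries allow. The design thus cannot show significance for any single motor. A site in any control was found on 2 motors, KIF1B and KIF7 (4.55%), against 1.76% of all listed genes.

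Transport kinesins had 8 and 3 HITS-CLIP AEG1 sites, against 1 and 0 in the controls, and KIF1C alone gave 5 of the 8 in replicate 1. Of 10 listed, 8 had a PAR-CLIP AEG1 site, with 132 sites in all, against 97.6% of all listed genes. A site in both HITS-CLIP AEG1 replicates was on 3 (KIF1C, KIF1B and KIF5C), against 16.1% of all listed genes. These counts are too small to compare with those shares. KIF1C (NM_006612), a plus-end-directed kinesin of vesicle transport, had 5 and 1 sites in HITS-CLIP AEG1, against 0 and 0 in the controls. The means were 3 ± 2.83 and 0 ± 0 (SD, n = 2 each). Replicate 1 placed its sites at nt 1680 to 1756, 1780 to 1897, 2290 to 2323, 3153 to 3241 and 4035 to 4096 of the mRNA, and replicate 2 placed its single site at nt 2050 to 2126. None of the replicate 1 sites overlapped the replicate 2 site, so the replicates shared the gene and not the position. All 6 sites overlapped PAR-CLIP AEG1 sites, of which KIF1C had 25.

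KIF1B (NM_183416), which carries mitochondria and vesicle precursors, had 1 and 1 HITS-CLIP AEG1 sites, against 1 and 0 in the controls. Both AEG1 sites ran from nt 5597 to 5623, 27 nt, with scores of 7.81 and 7.39. The score is a log2 value and can be compared only between sites of a single mRNA, for the reason given further on. The control 1 site lay inside them, at nt 5601 to 5621, with a score of 5.72. The AEG1 scores were thus higher than the control score by 2.08 and 1.67, while the site counts of the groups overlapped. A PAR-CLIP AEG1 site, 1 of 8 on this mRNA, ended at the same base, 5623, and began 12 nt earlier.

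The 3 paralogs of conventional kinesin-1, KIF5A, KIF5B and KIF5C, did not share a pattern. KIF5B, the form made in most tissues, had 25 PAR-CLIP AEG1 sites and no HITS-CLIP site. KIF5C and KIF5A, known mainly from neurons, had no PAR-CLIP site. KIF5C (NM_004522) had 1 and 1 HITS-CLIP AEG1 sites, both at nt 4302 to 4321, with scores of 10.42 and 11.50, against none in the controls. KIF5A had 1 site of 33 nt, in HITS-CLIP AEG1 replicate 1. Kinesin-2 was similarly uneven, with 34 PAR-CLIP AEG1 sites on KIF3B and 1 on KIF3A, whose products form a heterodimer that carries cargo in cilia. KIF3B sites covered 47.3% of its mRNA up to nt 6070. KIF13B and KIF13A, kinesin-3 motors of endosomal traffic, had 17 and 9 PAR-CLIP sites, and KIF21A, which restrains microtubule growth at the cortex, had 13.

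Of 12 mitotic kinesins listed, 10 had PAR-CLIP AEG1 sites, 101 in all with a median of 11.5, and 0 had a site in both HITS-CLIP AEG1 replicates, where 97.6% and 16.1% of all listed genes did. KIF11, which pushes spindle poles apart, had 16 PAR-CLIP sites. KIF23, a subunit of the centralspindlin complex of cytokinesis, had 15, and KIF2C, which removes tubulin from microtubule ends, had 14. KIF20A of the midzone had 12, the chromokinesin KIF22 had 11, and the minus-end-directed KIFC1 had 10. KIF14, a kinesin of cytokinesis, had 5, and KIF2A, another that shortens microtubules, had 2.

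Single HITS-CLIP AEG1 sites on mitotic kinesins fell on KIF4A and KIF15 in replicate 2 and on KIF20B in replicate 1. The KIF4A site, at nt 93 to 158, lay 361 nt from the nearest of 12 PAR-CLIP AEG1 sites. KIF15 (19 nt) and KIF20B (27 nt) had no PAR-CLIP site. KIF4A and KIF4B are near-identical copies, and the sources used here do not say how shared reads were assigned. The 4 PAR-CLIP sites listed for KIF4B are therefore uncertain.

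KIF7 (NM_198525), a kinesin of Hedgehog signalling at the cilium tip, was the motor with sites in most controls. It had 1 and 1 sites in HITS-CLIP AEG1, against 1 and 1 in the controls (exact permutation p = 1). All 4 sites had identical ends, nt 3650 and 3671, and scored 9.74 and 9.74 in AEG1 and 8.74 and 9.74 in the controls. The listed KIF7 signal was thus no higher in AEG1 than in control 2, and it had no PAR-CLIP counterpart. KIFC3, a minus-end-directed motor, had 8 PAR-CLIP AEG1 sites, and KIFC2 had 1.

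Among myosins, 17 of 19 had a PAR-CLIP AEG1 site, where 97.6% of all listed genes did. Myosins held 249 PAR-CLIP AEG1 sites in all, against 242 on the kinesins. The median was 17 sites on a myosin mRNA with any and 11.5 on a kinesin mRNA. Non-muscle myosin II heavy chains MYH10 and MYH14, the motors of cortical contraction, had 33 and 26 PAR-CLIP sites. MYH14 also had a 63-nt site in HITS-CLIP AEG1 replicate 1, at nt 235 to 297, which was 99 nt from the nearest PAR-CLIP site. MYH7, the slow muscle and cardiac heavy chain, had a single 20-nt site in replicate 1 and no PAR-CLIP site. The 10 muscle markers summed to 1 and 2 sites in HITS-CLIP AEG1 and 7 in PAR-CLIP AEG1, on TTN, ACTA1 and ACTC1, with DES, CKM, MB, TNNT1, TNNT2, TNNI3 and RYR1 at none. Their part in the MYH7 site was not tested. How any reads that ACTA1 or ACTC1 share with other actin genes were assigned is not stated in the sources used here.

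Of 4 myosin light chains listed, 4 had a PAR-CLIP AEG1 site, 12 sites in all, and 2 had sites in both HITS-CLIP AEG1 replicates. Over all listed genes these shares were 97.6% and 16.1%, and the counts are too small to compare with them. MYL6 (NM_079423), the essential light chain of non-muscle myosin II, had 1 and 2 HITS-CLIP AEG1 sites, against 0 and 0 in the controls, with means of 1.5 ± 0.707 and 0 ± 0 (SD, n = 2 each). The replicate 1 site at nt 325 to 392 and a replicate 2 site at nt 358 to 434 shared 35 nt. The other replicate 2 site lay at nt 556 to 597. A single PAR-CLIP AEG1 site of 657 nt, from nt 103 to 759, enclosed all 3 and was the longest on any motor. Its score, 5.94, was above the HITS-CLIP scores of 1.10, 0.18 and 2.10 on the same mRNA.

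MYL12A (NM_006471), a regulatory light chain, had 1 and 1 HITS-CLIP AEG1 sites, against 0 and 0 in the controls. They lay at nt 746 to 781 in replicate 1 and nt 336 to 395 in replicate 2, apart from each other but each inside a PAR-CLIP site. PAR-CLIP AEG1 called 6 sites on MYL12A, which covered 66.2% of its mRNA up to nt 1106, 3 on its near-identical copy MYL12B, and 2 on MYL6B. Reads shared by MYL12A and MYL12B could be listed under either, so their separate counts are uncertain.

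Unconventional myosins held the largest number of PAR-CLIP AEG1 sites of any motor class, 178 on 11 of 12 genes, where 97.6% of all listed genes had one. With the mitotic kinesins, they were also the largest class, at 12 genes each. Their median was 18 sites, against 29.5 for the non-muscle myosin II heavy chains. MYO18A, which ties the Golgi to actin, had 40, the most of all motors. The membrane-linking class I myosins MYO1C and MYO1D had 26 and 18, while MYO1E had 1. MYO19, the mitochondrial myosin, had 20. MYO6, which moves toward the minus end of actin filaments and serves endocytosis, had 17. The class V cargo carriers had few: MYO5C had 4, MYO5B had 2, and MYO5A had none and a single 19-nt HITS-CLIP site in replicate 1. MYO7A, an actin motor of hair cells and retina, had 4.

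MYO9B (NM_004145), a single-headed myosin, was the 1 unconventional myosin with sites in both HITS-CLIP AEG1 replicates. Both sites ran from nt 3054 to 3075, 22 nt, and both scored 8.41, against no site in the controls. They ended at the same base as a PAR-CLIP AEG1 site that began 44 nt earlier, and the HITS-CLIP scores were higher than its score by 1.58. MYO9B had 19 PAR-CLIP sites, yet they covered only 16.7% of the mRNA up to nt 7361.

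**Figure D2:**
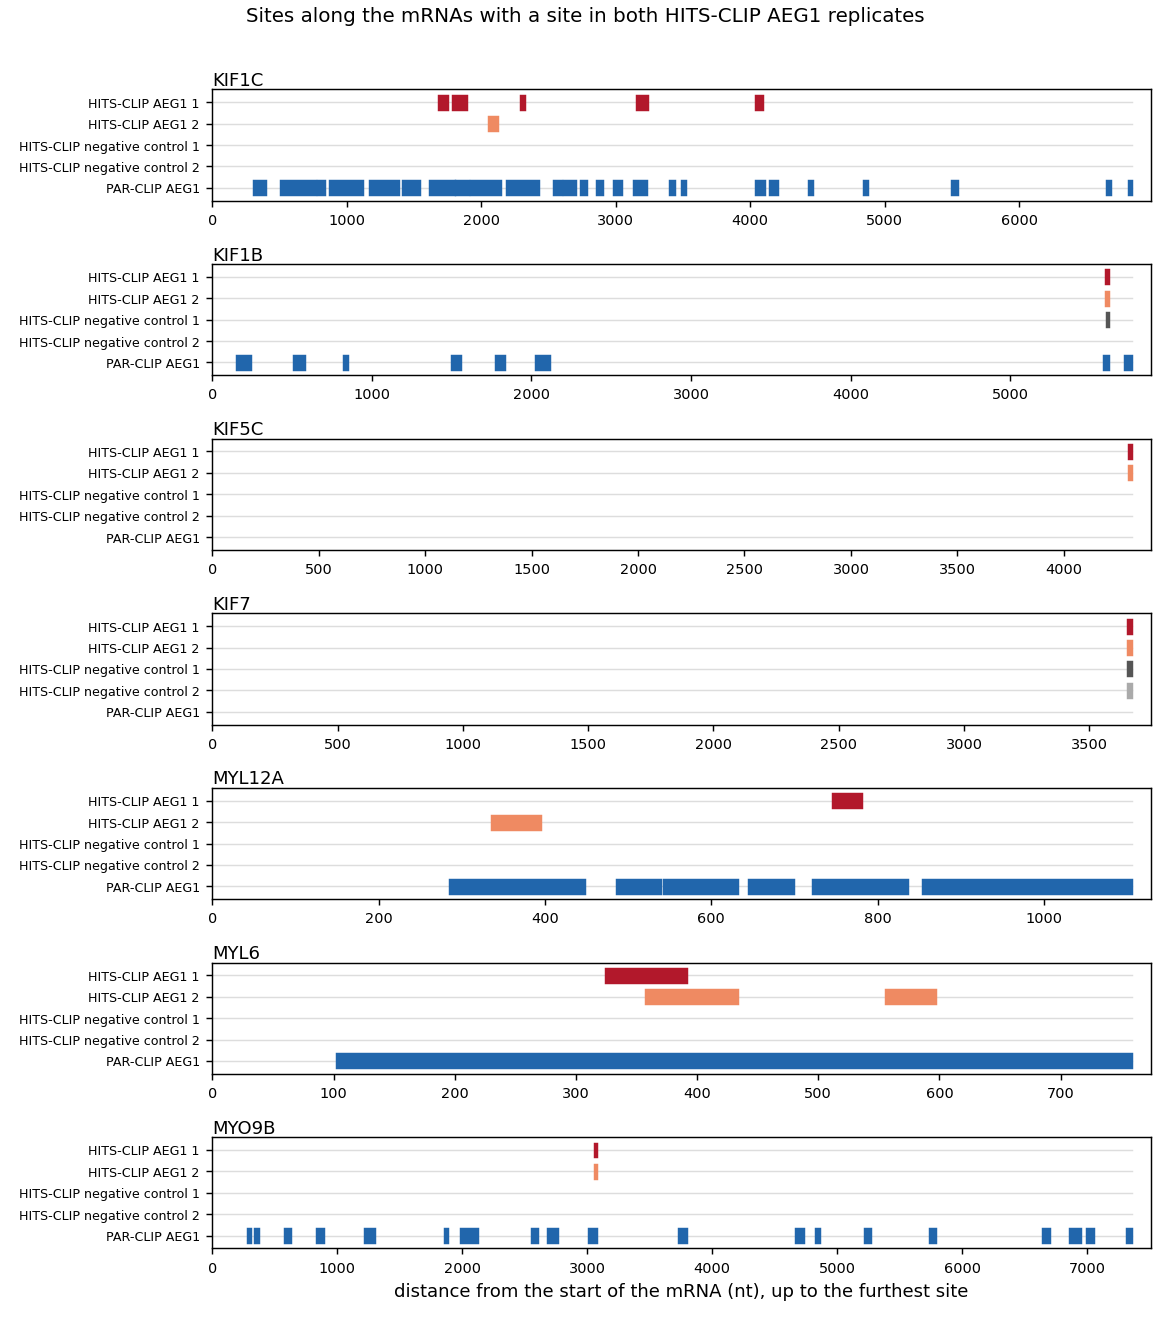
Sites along the 7 motor mRNAs with a site in both HITS-CLIP AEG1 replicates, 1 lane per library, drawn from the start of the mRNA (x axis, nt) to the furthest site. KIF1C sites of the replicates stand apart over dense PAR-CLIP sites, KIF7 sites stand at the same place in AEG1 and control lanes, and KIF5C and KIF7 have an empty PAR-CLIP lane. Outlines widen the shortest sites slightly.

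HITS-CLIP sites on motors were next set beside those of all genes by position. Of 16 replicate 1 sites 5 shared at least 1 nt with a site of replicate 2 (31.2%, 95% interval 11% to 58.7%), against 63.2% for all genes. In the other direction, 5 of 10 did (50.0%, 18.7% to 81.3%), against 71.3%. Of the replicate 1 sites, 4 of 16 had both ends identical to those of a replicate 2 site (25%, 7.27% to 52.4%), against 2.01% for all genes. These were the sites on KIF1B, KIF5C, KIF7 and MYO9B, all between 20 and 27 nt long. The KIF7 site had the same ends in both controls, and a control site lay inside the KIF1B site. Replicate-matched sites on motors were thus few and mostly identical to the base, and MYL6 gave the other overlap.

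Sites of 25 nt or less made up 5 of 16 in replicate 1 (31.2%, 11% to 58.7%) and 4 of 10 in replicate 2 (40%, 12.2% to 73.8%), against 6.8% and 7.01% for all genes. Median lengths were 33.5 and 34.5 nt on motors, against 51 and 52 nt for all genes. In the HITS-CLIP controls the median site of all genes was 21 nt in either library. In PAR-CLIP AEG1, 0 of 491 motor sites were that short (upper 95% limit 0.748%), against 0.241% for all genes, and the medians were 74 and 73 nt.

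**Figure D3:**
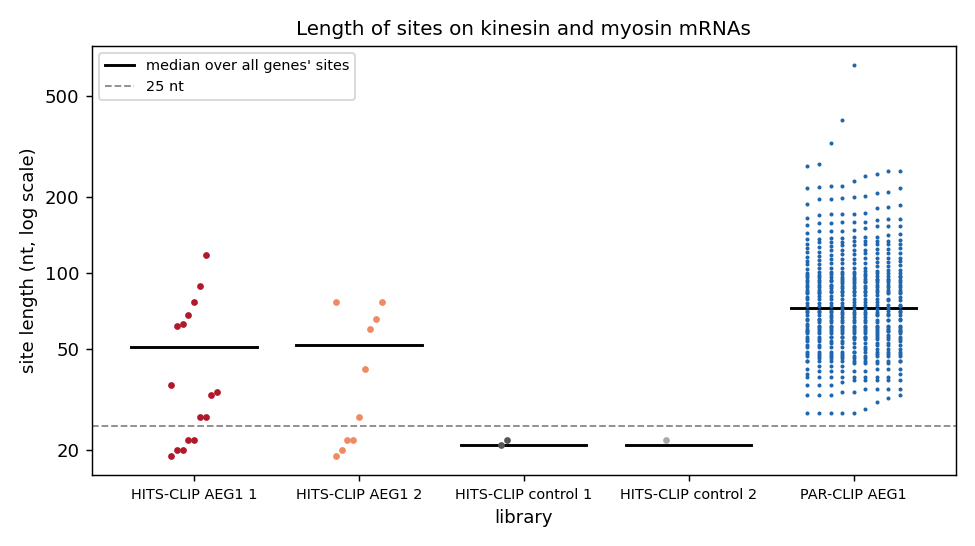
Length of every site on a motor mRNA (points, log scale, nt) by library, with the median over all genes' sites (black line) and 25 nt (dashed line). HITS-CLIP AEG1 points run from 19 to 118 nt with 9 of them at or under the dashed line, and PAR-CLIP AEG1 points centre on a median of 74 nt.

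HITS-CLIP sites that lay on a PAR-CLIP AEG1 site made up a smaller share on motors. They numbered 9 of 16 in replicate 1 (56.2%, 29.9% to 80.2%) and 6 of 10 in replicate 2 (60.0%, 26.2% to 87.8%), against 90.2% and 90.4% for all genes. Of the 14 motors with a site in any HITS-CLIP AEG1 replicate, 7 had no PAR-CLIP site (50.0%, 23.0% to 77.0%), against 8.6% of all such genes. Of the 7 with sites in both replicates, 2 had none (28.6%, 3.67% to 71.0%), against 5.83%. The motors without a PAR-CLIP site were KIF5A, KIF5C, KIF7, KIF15, KIF20B, MYH7 and MYO5A. Without a HITS-CLIP site these genes would not be listed at all.

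Length and PAR-CLIP support went together. The 7 motors without a PAR-CLIP site had 9 HITS-CLIP AEG1 sites of 19 to 33 nt with a median of 20 nt, and 7 of the 9 were 25 nt or shorter (77.8%). The 7 motors with a PAR-CLIP site had 17 HITS-CLIP sites of 22 to 118 nt with a median of 62 nt, and 2 of these were 25 nt or shorter (11.8%). The same division held over all genes, where 63.5% of 285 HITS-CLIP sites on genes without a PAR-CLIP site and 5.53% of 11744 sites on genes with one were that short. What gave rise to the short sites was not tested. The motors with a HITS-CLIP site longer than 25 nt in both AEG1 replicates were KIF1B, KIF1C, MYL6 and MYL12A. On KIF1C and MYL12A the sites of the replicates did not overlap, and the KIF1B sites enclosed a control site.

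Scores could be compared between sites along a single mRNA. On 4097 of 4103 transcripts with at least 6 sites, and on all 25 such motor mRNAs, 2 to the power of the score was a whole number times a constant of that mRNA shared by all libraries, after allowing for 5 multipliers and within a relative tolerance of 2e-05. These whole numbers are called steps here. What 1 step stands for was not established, and steps were not scaled by library. The median PAR-CLIP AEG1 site had 3 steps on motors and 3 on all genes, and 48.37% and 45.12% of sites had 1 or 2 steps. The median HITS-CLIP AEG1 site had 4 and 3 steps on motors in replicates 1 and 2, over 9 and 5 sites, against 5 and 5 on all genes. The KIF1B control site had 1 step, against 4 and 3 steps for the AEG1 sites over it.

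The step profiles differed between motors. KIF1C was the most one-sided, with 89.9% of its 129 PAR-CLIP AEG1 steps in the first 50% of the stretch up to its furthest site. Its highest site, of 17 steps, lay at nt 1166 to 1386, and the HITS-CLIP AEG1 sites had 3 to 8 steps. MYH10 had 77.8% of its 99 steps in the first 50%, and its highest site lay at nt 742 to 958. MYO1D had 74.2% and MYO18A had 66.1%. KIF21A and MYL12A were weighted to the far end, with 18.4% and 23.4%. Over all 25 motor mRNAs the median was 51.0%, against 51.2% over 4096 genes, so the motors had no shared lean to either end.

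The tallest single sites differed in how far they stood above the rest of their mRNA. MYH14 had 23 steps at nt 6395 to 6611, of 98 on that mRNA, and the highest score of any motor in PAR-CLIP, 11.90. MYL12A had 29 of 64 steps in the site at nt 854 to 1106. MYO1C had 12 of 112 at nt 3512 to 3774, 1 step above its sites at nt 1132 to 1301 and 2793 to 3034, which had 11 each. KIF2C had 16 of 66 at nt 209 to 365. KIF3B had its highest value, 11 of 110 steps, at nt 89 to 204 and again at nt 335 to 443. The next highest PAR-CLIP scores after MYH14 were on KIF4B (10.37), MYO19 (10.15), MYO7A (10.04) and KIF2C (9.25), which rank scores of different mRNAs and so not their amounts.

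**Figure D4:**
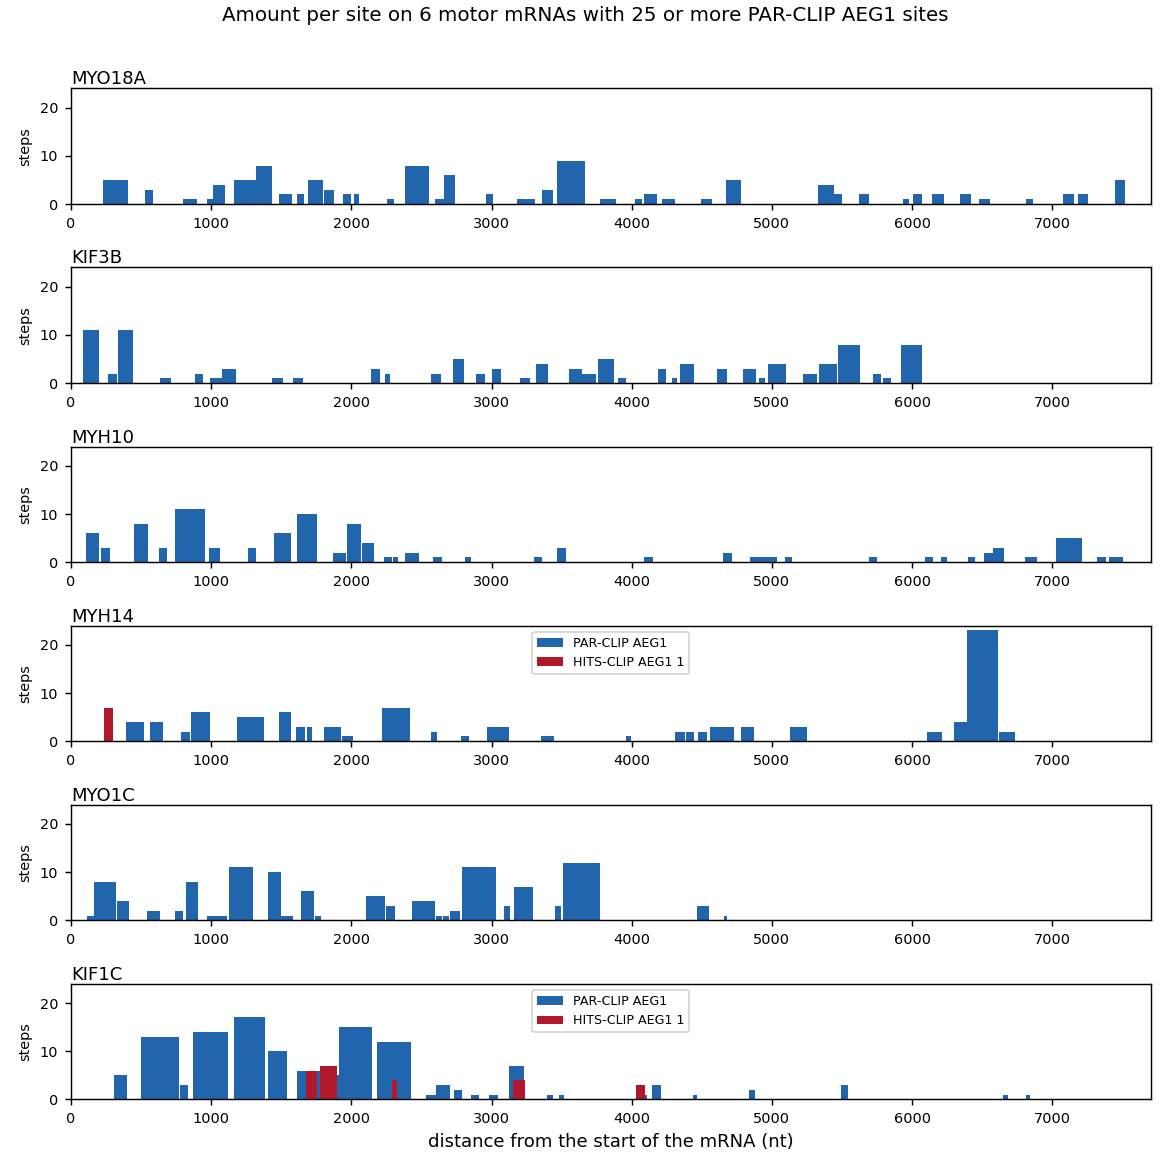
Steps per site (y axis) along 6 motor mRNAs with 25 or more PAR-CLIP AEG1 sites, by distance from the start of the mRNA (x axis, nt), with HITS-CLIP AEG1 replicate 1 sites in red where present. MYH14 reaches 23 steps near the far end, KIF1C reaches 17 steps, and KIF3B and MYH10 reach 11 steps near the start.

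Genes that work with these motors were counted in the same libraries. Of 21 listed dynein and dynactin genes, which form the minus-end-directed microtubule motor, 20 had a PAR-CLIP AEG1 site, where 97.6% of all listed genes did. A site in both HITS-CLIP AEG1 replicates was on 2 of them, against the 16.1% of all listed genes given above. These were DYNC1H1, the dynein heavy chain, with 12 and 11 HITS-CLIP and 88 PAR-CLIP sites, and DCTN1, the largest dynactin subunit, with 1 and 1 and 21. PAFAH1B1, a dynein regulator, had none in HITS-CLIP and 20 in PAR-CLIP. Of 19 listed kinesin partners and cargo adaptors, 19 had a PAR-CLIP site and 2 a site in both replicates. Over all listed genes these shares were 97.6% and 16.1%. RRBP1, a ribosome-binding protein of the endoplasmic reticulum membrane, had 11 and 18 HITS-CLIP AEG1 sites and 22 in PAR-CLIP. CLSTN1, a membrane protein that docks kinesin-1 on vesicles, had 5 and 3, and 24. KTN1, the kinesin receptor of the endoplasmic reticulum, had none in HITS-CLIP and 11 in PAR-CLIP, and the kinesin light chain KLC1 had none and 10.

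Of 16 listed myosin regulators, 16 had a PAR-CLIP AEG1 site and 0 a site in both HITS-CLIP AEG1 replicates, where 97.6% and 16.1% of all listed genes did. Those with most were MPRIP, which targets myosin phosphatase, and UNC45A, a myosin chaperone, with 16 each, and the calmodulin gene CALM3 with 13. CDC42BPB, a kinase of the myosin light chain, had a site in HITS-CLIP control 2. A list of actin and tropomyosin genes also held the actin-binding proteins ACTN1, ACTN4, CFL1 and PFN1. Of its 10 listed genes, 7 had a site in both HITS-CLIP AEG1 replicates, against the same 16.1%. A control site was on 4 of the 10 (ACTB, ACTG1, ACTN4 and PFN1, all in the PAR-CLIP control), against 1.76% of all listed genes. ACTB, the cytoplasmic beta-actin, had 11 and 11 in HITS-CLIP AEG1 and 2 in PAR-CLIP AEG1, and the PAR-CLIP control also had 2. ACTN4, an actin crosslinker, had 12 and 9 in HITS-CLIP AEG1 and 19 in PAR-CLIP AEG1, against 1 in the PAR-CLIP control. ACTN1, a related crosslinker, had 2 and 1 in HITS-CLIP AEG1 and 15 in PAR-CLIP AEG1, and the tropomyosin gene TPM4 had 1 and 0, and 14. A site in each HITS-CLIP AEG1 replicate, at the same position or not, was thus listed on 7 of these 10 genes. The count for myosins was 3 of 19, a difference that was not tested.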

How the data were processed

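Per the labels' protocols, small RNA libraries were sequenced on an Illumina HiSeq. Bowtie is named, without a version, in the submitters' processing notes. The sources used here name no site caller, threshold or reference. The deposited lists, 1 per library, give for each site its RefSeq mRNA, symbol, start, end and the authors' score, a log2 value as read from its numbers. Starts were taken as 0-based and are printed 1-based on the mRNA.

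The number of sites per gene was compared by library, with exact two-sided permutation tests for HITS-CLIP and no test for PAR-CLIP. Shares carry exact Clopper-Pearson 95% intervals. Overlap meant at least 1 nt. No count model was run, since no read counts were used here. The step search was tested on simulated data. All 44 member transcripts matched the RefSeq gene table (GRCh38.p14) by accession with the same symbol, as did 8146 of 8204 transcripts by accession. Sequences and coding boundaries were not analysed here.

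Genes named are those with sites in both HITS-CLIP AEG1 replicates or in a control, the 15 with most PAR-CLIP sites, the 5 highest PAR-CLIP scores, and examples of the rest. A gene picked by this rule is not reported here. Members, partner lists and rules were chosen with earlier results of these data known, and the grouping by role after values were seen. Alternatives covered site length, score, sites per gene, overlap, symbols and single replicates. Calculations used Python 3.11.15, pandas 2.3.3, numpy 2.4.6, SciPy 1.17.1 and matplotlib 3.10.9.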

Additional observations from a re-analysis of the deposited data

How the results depend on the processing

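The count of 7 motors with a site in both HITS-CLIP AEG1 replicates was 4 with sites longer than 25 nt, 4 with sites above the median score of their library and 0 when each replicate needed at least 2 sites. The median score is 1 cutoff for all mRNAs of a library, while scores can be compared only within an mRNA. Here and below, alternatives with that cutoff may therefore sort mRNAs by their own constant rather than sites by amount. With 1 replicate it ranged from 9 (without replicate 1) to 12 (without replicate 2). Of alternatives added after seeing the data, it was 2 among genes with at least 15 PAR-CLIP AEG1 sites, 5 without sites that overlap a control site, and 5 with replicates matched by site. The ratio of motor sites, HITS-CLIP AEG1 over control, was 8.67 and fell to 4.67 with sites above the median score. Leaving out 1 library gave 6.5 to 13.0, where 6.5 is without control replicate 2 and 13.0 without control replicate 1. For sites longer than 25 nt no ratio can be given, as no control site on a motor was left. PAR-CLIP AEG1 sites were on 31 to 37 motors under all 3 alternatives run. Replicate overlap (31.2%) was 25% and 44.4% under its alternatives, and overlap with PAR-CLIP (57.7%) ranged from 56.2% to 60.0%. With the replicate block the smallest p was 0.5, against 0.333. In the main test the replicate numbers were treated as labels alone. The paired deviations of AEG1 and control replicates correlated at -0.028 over 8204 genes. Only 144 of these genes had a site in any control, so this value cannot decide whether the numbers pair libraries. Few sites on most motors and unknown read depth limit these counts.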
